A study of Mus musculus with 6 samples.

Results

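The mouse genes named Zfp with a number encode zinc finger proteins, most of them of the C2H2 type, in which short loops held by a zinc ion read DNA or RNA. Members were chosen by their summed counts: they were the protein-coding genes with such a symbol and at least 200 counts over the 6 libraries, without Zfp36, Zfp395 and Zfp703. The rule gave 196 members, out of 365 protein-coding Zfp-numbered genes and 55263 genes in all, and each of the 196 was tested. The summed counts that chose them ran from 201 to 22930 with a median of 929.5. The lowest members were Zfp566 and Zfp882 with 201 counts each, and the genes just below the floor were Zfp334 with 188 and Zfp128 with 186 counts. The rule used these sums and named 3 genes to leave out, so the shares of members that moved are described beside those of all genes and carry no test over the members as a list.

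The cells were wild-type mouse bone marrow-derived macrophages, which are grown in culture from marrow progenitors. There were 3 groups of 2 libraries: a control, cells given LPS (lipopolysaccharide, a bacterial cell wall component that macrophages sense through TLR4), and cells given LPS and a preparation labelled HACA. The labels spell out neither HACA nor a dose or time, and the series is titled as work on a hyaluronic acid nanomedicine for psoriasis. Polyadenylated RNA was sequenced, per the labels' protocols, to between 12529874 and 15379496 counts per library. No label ties the replicates to separate cultures or animals, and the p-values therefore cover the spread among these libraries, which may be technical. Levels are edgeR's CPM, library-scaled counts, after TMM scaling, and a gene was called changed at an adjusted p under 0.05 (edgeR quasi-likelihood test, Benjamini-Hochberg over all 17113 genes tested).

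The macrophage marker Lyz2 stood between 30358 and 47787 CPM, while Adgre1 stood between 0.394 and 0.674 CPM and Itgam between 0.193 and 1.82 CPM. Cd14 stood at 331 and 420 CPM in control and 2785 and 5262 CPM in LPS. Mertk stood at 129 and 160 CPM in control and 39.1 and 50.7 CPM in LPS. Of 7 macrophage markers tested, 1 was called higher and 2 lower in LPS, against 15.9% and 14.3% of all genes. In LPS+HACA against LPS 1 was lower, where 7.67% of all genes were. Markers of stromal cells summed to between 32.3 and 49.7 CPM in the replicate 1 libraries and to between 1.35 and 2.22 CPM in the replicate 2 libraries of the 3 groups, with Col1a2 and Col1a1 holding most of it and Pdgfra and Dcn at or near 0. Cell cycle genes also summed higher in replicate 1 of each group, at 719 against 200 CPM in control, 1933 against 1073 CPM in LPS and 1430 against 376 CPM in LPS+HACA. Mki67 held most of each sum, and 0 of the 8 cell cycle genes were called in any comparison. These genes went in both directions in LPS, with Mki67 higher and Cdk1 lower than in control within both replicate numbers. Markers of dendritic cells summed to 19.6 and 26.6 CPM in control, 47.6 and 73.0 CPM in LPS and 23.9 and 31.8 CPM in LPS+HACA, with Itgax the highest of them in every library, and 2 of the 5 tested called higher in LPS and 1 lower in LPS+HACA against LPS. Markers of T and NK cells, nearly all from Cd4, summed to 14.8 and 41.5 CPM in control, 5.02 and 33.8 CPM in LPS and 5.71 and 33.4 CPM in LPS+HACA, while Cd3e, Cd8a, Nkg7 and Ncr1 were at 0. Neutrophil markers summed to between 0.972 and 11.8 CPM, highest in LPS replicate 2. The part of these differences in the results below was not tested. In such bulk samples fewer cells of a type and less RNA per cell cannot be told apart.

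Many C2H2 zinc finger proteins carry a KRAB domain, which recruits the corepressor TRIM28 and, through it, histone deacetylases, the H3K9 methyltransferase SETDB1 and heterochromatin proteins. The KRAB genes lie in clusters that expanded by duplication, and several are known to silence retroelements or to guard imprinted loci. Members without KRAB are a mixed group that includes promoter-binding factors, chromatin cofactors, RNA-binding proteins and ubiquitin or SUMO ligases. By fixed letter patterns in the translated coding sequences, 114 members carried a KRAB domain and 82 did not, and 6 carried a SCAN domain. The patterns can miss a degenerate domain, so members described as without KRAB are those that matched no KRAB pattern. In 6 members no finger was matched. The number of fingers ran from 0 to 33, with a median of 12 in the KRAB members and 6.5 in the others.

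In LPS, KRAB members stood mostly lower than in control. Of the 196 members, 13 were called higher and 61 lower, against 15.9% of all genes tested called higher and 14.3% called lower. The KRAB class held 6 of the higher and 45 of the lower calls, with a median log2 fold change of -0.95. The class without KRAB held 7 higher and 16 lower calls, with a median of -0.16, and the median of all genes was -0.05. On leaving out LPS replicate 2 the median was -0.64 over KRAB members and -0.30 over the others. On leaving out LPS replicate 1 it was -1.48 and -0.08. The size of the difference between the classes thus depended on which LPS library was kept. The fold change was negative for 99 of the 114 KRAB members (86.8%), for 45 of the 82 others (54.9%) and for 51.9% of all genes. The libraries of the 2 groups did not overlap for 142 members, which is 72.4% of them, against 66.7% of all genes. Without control replicate 1 there were 5 higher and 26 lower calls, where 6.59% and 5.8% of all genes were called, and without control replicate 2 there were 6 and 13, where 6.78% and 5.04% were. The KRAB class then held 18 lower calls without control replicate 1 and 7 of 114 without control replicate 2. Without LPS replicate 1 there were 20 higher and 83 lower calls, where 16.4% and 15.3% of all genes were called. The replicate number as a block gave 17 and 80, where 20.5% and 19.8% of all genes were called.

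**Figure D1:**
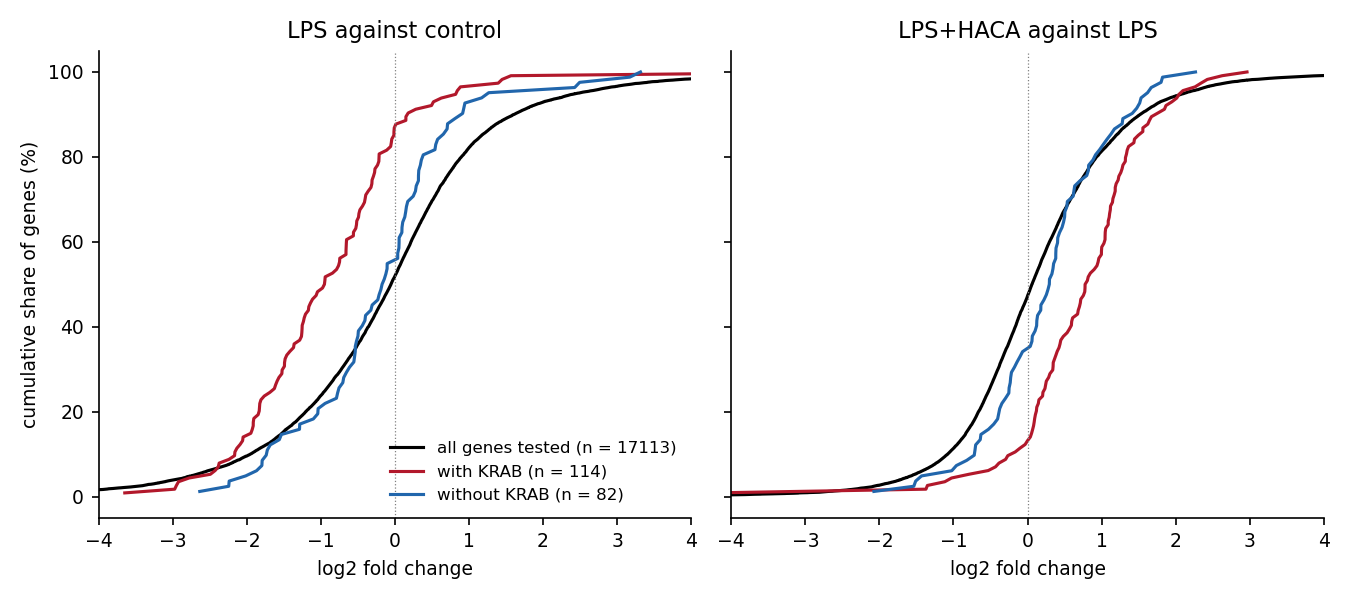
Cumulative share of genes (y axis, %) by log2 fold change (x axis, drawn from -4 to 4) for LPS against control (left) and LPS+HACA against LPS (right), for KRAB members (red), members without KRAB (blue) and all genes tested (black). The red line lies left of the others over most of the left panel, with a median of -0.95, and right of them over most of the right panel, with a median of 0.79.

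The shift was seen at low and at high levels. Among KRAB members with a mean under 10 CPM, 27 of 61 (44.3%) were lower, against 21.9% lower among protein-coding genes of that level with at least 200 counts. Among KRAB members at 10 CPM or more, 18 of 53 (34.0%) were lower and 6 higher, against 12.8% lower among such genes. For the members without KRAB the shares lower were 26.7% below that level and 15.4% above it. Falls were larger at lower levels. Mean CPM and the fold change had a Spearman rho of 0.36 over the members (n = 196). It was 0.41 within KRAB members (n = 114) and 0.18 within the others (n = 82). The mean CPM includes the LPS libraries, so these values are a description.

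The median KRAB member stood at 10.04 and 11.9 CPM in the control libraries, at 6.45 and 4.33 CPM in the LPS libraries and at 9.84 and 10.04 CPM in the LPS+HACA libraries. Both LPS libraries were thus the lowest, and LPS replicate 2 was lower than replicate 1 for 95 of the 114 KRAB members, against 30 of the 82 others and 50.2% of all genes. Control replicate 2 was in turn higher than replicate 1 for 84 KRAB members. Within replicate 1 the median log2 ratio of LPS to control over KRAB members was -0.51, with 84 of 114 lower. Within replicate 2 it was -1.37, with 102 of 114 lower. Members without KRAB had medians of -0.23 and -0.08, and all genes of -0.06 and -0.07. The direction was therefore the same within both replicate numbers and the size differed.

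**Figure D2:**
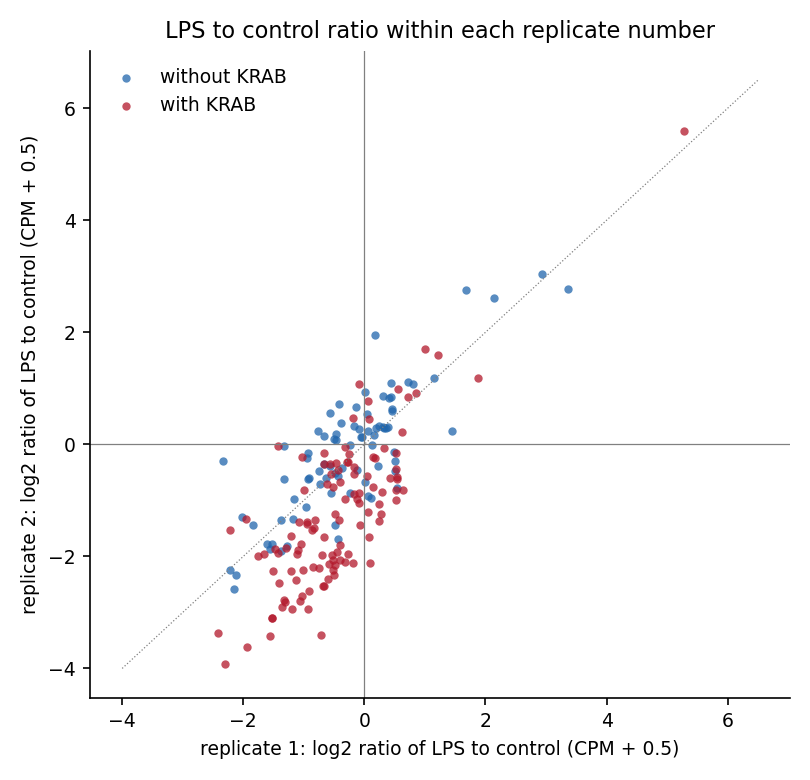
Log2 ratio of LPS to control, from CPM + 0.5, within replicate 1 (x axis) and within replicate 2 (y axis) for each of the 196 members, KRAB members in red and the others in blue, with the dotted line marking equal ratios. Most red points lie below 0 on both axes and below the dotted line, and Zfp811 lies alone at the upper right.

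The largest rise was that of Zfp811 (ENSMUSG00000055202), a KRAB gene with 13 fingers at chr17:32795676-32809931 (GRCm38, minus strand). It was measured at 0.565 and 0.331 CPM in control, 40.6 and 39.8 CPM in LPS, and 2.06 and 2.16 CPM in LPS+HACA. Both LPS libraries stood far above the other 4 and agreed closely. The log2 fold change in LPS was 6.45 ± 0.36 (SE), with an adjusted p of 9.7e-05 (edgeR). The control value rested on few reads, 9 and 5 counts. Of 905 counts of the gene, 903 fell on 1 protein-coding transcript.

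Members in which the patterns found no KRAB domain made up the next rises. Zfp800 (ENSMUSG00000039841, 6 fingers) stood at 2.63 and 2.71 CPM in control, 31.9 and 21.5 CPM in LPS, and 9.41 and 8.99 CPM in LPS+HACA. Its log2 fold change in LPS was 3.32 ± 0.31 (adjusted p = 0.000364, edgeR). The groups did not overlap, and LPS+HACA lay between the others. Zfp131, which has a BTB domain and is also called ZBTB35, stood at 2.89 and 3.57 CPM in control, 25.4 and 32.8 CPM in LPS, and 6.86 and 6.96 CPM in LPS+HACA. Its rise was 3.17 ± 0.29 (adjusted p = 0.000349, edgeR), and it was spread over 5 transcripts, each with more counts in both LPS libraries than in any other library.

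Zfp263, a DNA-binding factor that neither domain pattern matched, stood at 14.5 and 13.6 CPM in control, 65.5 and 85.8 CPM in LPS, and 26.5 and 26.6 CPM in LPS+HACA. It rose by 2.43 ± 0.24 on the log2 scale (adjusted p = 0.000489, edgeR). Zfp422, first described in developing teeth as Krox-26, stood at 2.20 and 1.39 CPM in control, 8.08 and 12.2 CPM in LPS, and 1.94 and 5.61 CPM in LPS+HACA. Its LPS libraries were the highest, its control and LPS+HACA libraries overlapped, and its rise was 2.49 ± 0.55 (adjusted p = 0.0117, edgeR). The other KRAB risers were Zfp948 with 1.57, Zfp382 with 1.45, Zfp719 with 1.39, Zfp871 with 0.88 and Zfp868 with 0.82, and the remaining risers without KRAB were Zfp407 with 1.17, Zfp319 with 0.95 and Zfp451 with 0.91 (log2). Zfp868 lies outside the rule for named genes and is given to complete the 13. Of the calls named here, those of Zfp811, Zfp800, Zfp131 and Zfp263 held in all 14 alternative analyses run on them. Those of Zfp382, Zfp719, Zfp871, Zfp407, Zfp319 and Zfp451 were lost with library totals as the only scaling. On leaving out control replicate 1 the calls of Zfp422, Zfp719, Zfp871, Zfp319, Zfp451, Zfp407 and Zfp948 were lost, and on leaving out control replicate 2 those of Zfp422, Zfp719, Zfp871, Zfp319, Zfp451 and Zfp382.

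The largest fall was that of Zfp763 (ENSMUSG00000067430), a KRAB gene with 13 fingers. It stood at 7.84 and 7.08 CPM in control, 1.18 and 0 CPM in LPS, and 6.62 and 2.64 CPM in LPS+HACA. The LPS libraries held 12 and 0 counts and lay below all others. The log2 fold change was -3.65 ± 0.98 (adjusted p = 0.0304, edgeR), and the call was lost with the DESeq2 test and without either control library.

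Zfp398 (ENSMUSG00000062519), known as ZER6 in human cells, where it binds the oestrogen receptor, is a KRAB gene with 7 fingers. It stood at 28.9 and 30.4 CPM in control, 5.02 and 2.505 CPM in LPS, and 20.4 and 20.1 CPM in LPS+HACA. The 3 groups were apart, with LPS lowest. The log2 fold change in LPS was -2.97 ± 0.35 (adjusted p = 0.000943, edgeR), and this call held in all 14 alternatives.

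Zfp157, a KRAB gene studied in mammary epithelium, stood at 20.7 and 24.4 CPM in control, 5.02 and 1.54 CPM in LPS, and 14.3 and 17.2 CPM in LPS+HACA. It fell by 2.78 ± 0.48 on the log2 scale (adjusted p = 0.00456, edgeR). Zfp41, without KRAB, stood at 11.9 and 9.46 CPM in control, 2.27 and 1.16 CPM in LPS, and 10.6 and 5.88 CPM in LPS+HACA, a fall of 2.63 ± 0.45 (adjusted p = 0.00432, edgeR). For both genes each LPS library lay below each other library, and both calls held in all 14 alternatives. The further large falls, all KRAB genes, were Zfp169 with -2.95, Zfp937 with -2.92, Zfp235 with -2.49, Zfp882 with -2.43 and Zfp940 with -2.37 (log2). They stood at under 15 CPM in control. Zfp937 had an adjusted p of 0.0496 and lost its call in 7 of the 14 alternatives. Zfp169 lost its call without control replicate 2, Zfp235 and Zfp882 lost theirs without either control library, and that of Zfp940 held in all 14.

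**Figure D3:**
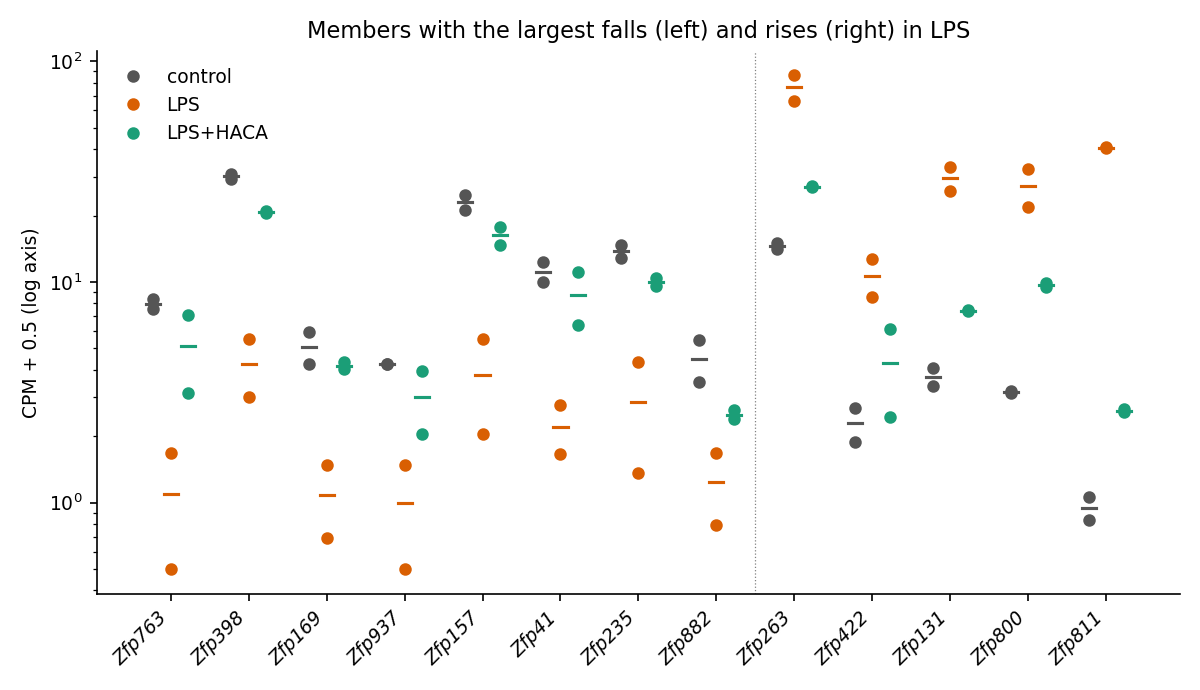
CPM + 0.5 on a log axis for the 8 members with the largest falls (left of the dotted line) and the 5 with the largest rises (right) in LPS, with a point for each library of control (grey), LPS (orange) and LPS+HACA (green) and a bar at each mean of 2. The LPS points lie outside the range of the control points for each gene shown. The LPS+HACA points lie between the LPS and control points or within the range of the control points.

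Among the 6 members with the highest mean CPM, which is not corrected for transcript length, the directions were mixed. Zfp871, a KRAB gene, stood at 220 and 228 CPM in control, 397 and 430 CPM in LPS, and 248 and 229 CPM in LPS+HACA. Zfp652, a repressor known to work with CBFA2T3, stood at 223 and 226 CPM in control, 47.7 and 47.4 CPM in LPS, and 127 and 144 CPM in LPS+HACA. Its log2 fold change in LPS was -2.24 ± 0.20 (adjusted p = 0.000349, edgeR), it held in all 14 alternatives, and its replicates were close. Antisense genes overlap 19.3% of its exonic bases, and without stated strand use their reads cannot be told apart from its own.

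Zfp407, which is known from PPARγ target genes in fat cells, stood at 114 and 128 CPM in control, 255 and 290 CPM in LPS, and 155 and 180 CPM in LPS+HACA. Zfp451, a SUMO ligase, stood at 106 and 87.8 CPM in control, 176 and 190 CPM in LPS, and 117 and 106 CPM in LPS+HACA. Both were called higher in LPS and neither had overlapping LPS and control libraries. Zfp91, a ubiquitin ligase of the noncanonical NF-kB pathway, stood at 137 and 161 CPM in control and 196 and 131 CPM in LPS, so its groups overlapped (log2 fold change 0.13 ± 0.25, adjusted p = 0.721, edgeR). Zfp991 stood at 107 and 151 CPM in control and 153 and 85.3 CPM in LPS, and shared 87.0% of its 50-base stretches with other genes, so its counts are uncertain.

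**Figure D4:**
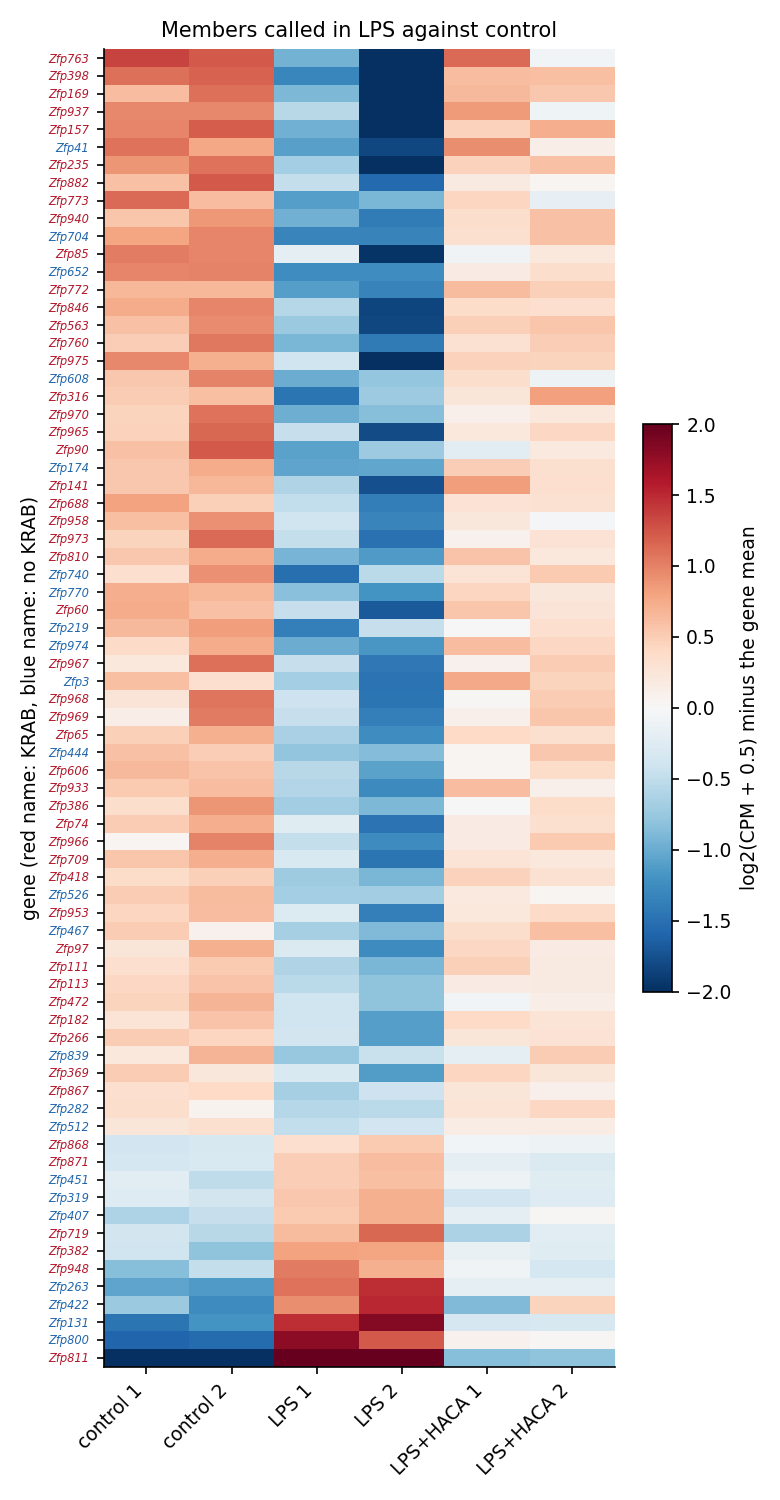
Log2(CPM + 0.5) minus the gene's mean over the 6 libraries (colour scale, capped at -2 and 2) for the 74 members called in LPS against control, 1 row per gene ordered by fold change, with KRAB gene names in red and the others in blue. The 2 LPS columns are blue for the 61 lower members and red for the 13 higher ones, and the LPS replicate 2 column is darker than that of replicate 1 in many KRAB rows.

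The KRAB factors known for imprinting or retroelement silencing did not pass the test in the main analysis. Of 6 such factors listed, 4 were members, and 0 were called in either direction by edgeR, DESeq2 or limma-voom. At an unadjusted p under 0.05 (edgeR), a cutoff not corrected for the number of genes, 1 was higher and 1 lower. Zfp445, which protects imprinted loci, stood at 64.6 and 88.3 CPM in control and 94.2 and 57.3 CPM in LPS, overlapping fully. Zfp568, a repressor of a placental Igf2 promoter, stood at 12.7 and 16.7 CPM in control and 18.9 and 33.7 CPM in LPS (log2 fold change 0.84 ± 0.33, adjusted p = 0.0925, edgeR). Zfp809, which silences retroviral DNA, had -0.56 ± 0.29, and Zfp932, which silences endogenous retroviruses, had -1.57 ± 0.60 with an adjusted p of 0.0823 (edgeR). Zfp932 shared 45.2% of its 50-base stretches with other genes, so its counts are uncertain. With the replicate block Zfp568 and Zfp932 did pass, with adjusted p of 0.0164 and 0.0386 (edgeR). Of the 14 alternatives, Zfp932 passed in 4, Zfp568 in 2 and Zfp809, with library totals, in 1.

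Of 23 listed promoter and chromatin factors, 14 were members, with 1 higher (Zfp263) and 4 lower in LPS (7.14% and 28.6% of the list, against 15.9% and 14.3% of all genes). The 4 were Zfp608 with -2.02, Zfp740 with -1.80, Zfp219 with -1.74 and Zfp467 with -1.29 (log2), named after their values were seen. Zfp592, a partner of ZMYND8, had 0.54 ± 0.32, and Zfp609, a partner of NIPBL and Integrator, had -0.21 ± 0.29. Zfp148 had -0.54 ± 0.25, and Zfp644, a partner of the G9a methyltransferase, had -0.61 ± 0.25. None of these 4 was called in the main analysis. For Zfp644, 84.6% of the counts lay on a transcript annotated as a retained intron. Zfp644 passed with the replicate block (adjusted p = 0.031, edgeR) and in 3 of 14 alternatives in all, Zfp148 in 2, and Zfp592 and Zfp609 in 1 each. All 10 listed RNA, ubiquitin, ribosome and spindle proteins were members, and 0 were called by edgeR, DESeq2 or limma-voom. At an unadjusted p under 0.05 (edgeR), a cutoff not corrected for the number of genes, 2 were lower. Among them the RNA-binding Zfp106 had -0.69 ± 0.28, Zfp706 had -0.50 ± 0.23, the spindle protein Zfp207 had -0.40 ± 0.28, and Zfp638 had -0.11 ± 0.33 (log2 fold change in LPS ± SE). With the replicate block the adjusted p was 0.00908 for Zfp106 and 0.0415 for Zfp706, LPS against control (edgeR). Of the 14 alternatives, Zfp106 passed in 3, Zfp706 in 2 and Zfp207 in 1.

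Of the 3 genes that the rule left out, Zfp36 was higher and Zfp395 lower in LPS, and Zfp703 was not called in the main analysis. Zfp36, the mRNA decay factor tristetraprolin, stood at 11.7 and 15.9 CPM in control and 26.0 and 57.4 CPM in LPS, a rise of 1.59 ± 0.40 (adjusted p = 0.0208, edgeR). That call was lost with library totals, without either control library and without LPS replicate 2. Zfp395 stood at 49.1 and 40.4 CPM in control, 1.58 and 0.867 CPM in LPS, and 19.1 and 11.9 CPM in LPS+HACA, and its fall of 5.19 ± 0.42 on the log2 scale was greater than that of each member. Zfp703, a transcriptional cofactor, stood at 57.8 and 64.9 CPM in control, 53.5 and 152 CPM in LPS, and 23.6 and 26.2 CPM in LPS+HACA. Its LPS libraries lay on both sides of the control (log2 fold change 0.74 ± 0.43, adjusted p = 0.228, edgeR), and without LPS replicate 1 the gene was called higher (adjusted p = 0.00306, edgeR). With the 3 genes put back, 14 of 199 were higher and 62 lower.

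A list of 25 symbols covered Trim28 and other corepressor and heterochromatin genes, and 23 of them were tested. In LPS 2 were higher (8.7%) and 5 lower (21.7%), against 15.9% and 14.3% of all genes. Trim28 itself stood at 30.3 and 25.2 CPM in control, 26.9 and 27.0 CPM in LPS and 24.2 and 26.1 CPM in LPS+HACA, and was not called (log2 fold change -0.04 ± 0.23, adjusted p = 0.909, edgeR). Setdb1 stood at 14.7 and 15.3 CPM in control, 2.96 and 3.66 CPM in LPS, and 11.3 and 8.86 CPM in LPS+HACA. The LPS libraries of Setdb1 were far below the others, with a log2 fold change of -2.18 ± 0.30 (adjusted p = 0.00159, edgeR) that held in all 14 alternatives. The other lower genes were Chd3 of the NuRD complex with -2.10, the methyltransferase Ehmt1 with -1.51, the heterochromatin protein gene Cbx3 with -1.41 and the SETDB1 partner Atf7ip with -1.27. The higher genes were Resf1, a silencing cofactor, with 1.42 and the deacetylase Hdac1 with 1.30 (log2), and these 6 were named after their values were seen. Hdac1 shared 58.7% and Cbx3 28.9% of their 50-base stretches with other genes, so their counts are uncertain.

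Members lay on 20 chromosomes, with 44 on chromosome 7, 29 on chromosome 17, 16 on chromosome 13 and 14 on chromosome 8. Another Zfp-numbered gene started within 100 kb of 106 members, 83 of them with KRAB. Of these clustered KRAB members 30 were lower and 6 higher in LPS, with a median of -0.79. Of the 31 KRAB members with no such neighbour 15 were lower, with a median of -1.24. Over all genes tested 14.3% were lower and 15.9% higher.

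The cluster around Zfp811 held changes in both directions. Within 350 kb on chromosome 17 lay 8 Zfp-numbered genes, 6 of them members. Zfp871, which lies 7388 bases from Zfp811, was also higher in LPS. Zfp799, 5517 bases away on the other side, had 6 counts in all libraries together. Farther along, Zfp472 had -1.22 (adjusted p = 0.0166, edgeR), Zfp952 had -0.53 and was not called, Zfp763 had -3.65, and Zfp563 had -2.13 (adjusted p = 0.00783, edgeR). This window was chosen after the values of Zfp811 were seen. On chromosome 2, 9 of 12 members were lower, against 14.3% of all genes, with a median of -1.66. This chromosome was picked out after the values by chromosome were seen. But Zfp965, Zfp967, Zfp968 and Zfp969 there shared all of their 50-base stretches with other genes and are not separate measurements. Each of them is also counted among the lower KRAB members given above.

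By number of fingers, members with 10 to 14 had the lowest median, -1.21, with 31 of 69 lower and 3 higher. Over all genes tested 14.3% were lower and 15.9% higher. Members with 0 to 4 fingers had a median of -0.31 with 9 of 33 lower, those with 5 to 9 had -0.45 with 14 of 52 lower, and those with 15 or more had -0.48 with 7 of 42 lower. Over the members the number of fingers and the fold change had a Spearman rho of -0.12 (n = 196), and within KRAB members of 0.06 (n = 114). These are genes measured in the same libraries, so the values are a description.

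**Figure D5:**
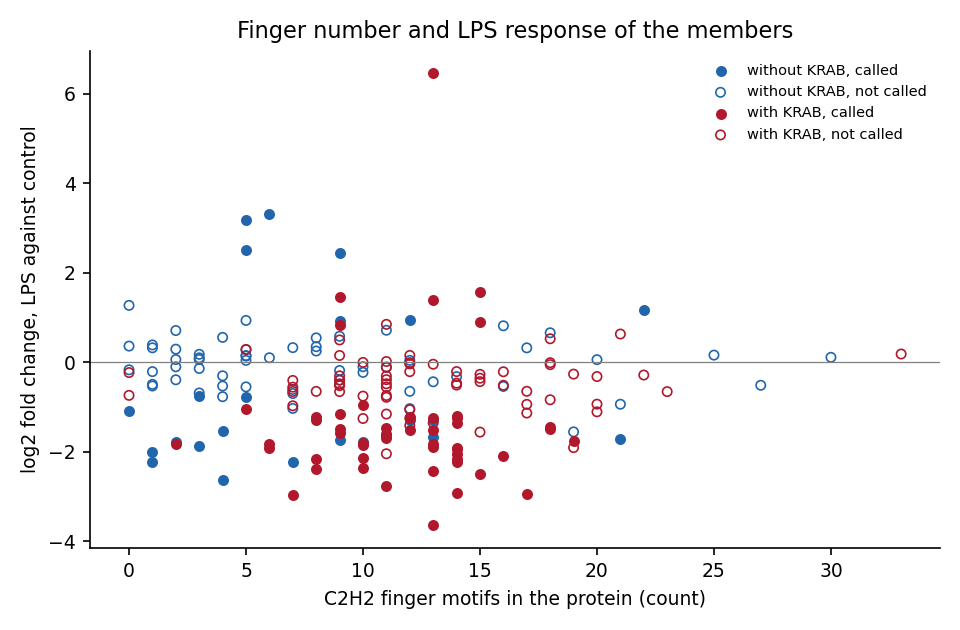
Log2 fold change in LPS against control (y axis) by the number of C2H2 finger motifs (x axis) for the 196 members, red with KRAB and blue without, filled where called. Most filled red points lie between 5 and 20 fingers and below 0, and Zfp811 stands at 6.45 with 13 fingers.

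RefSeq promoter windows (GRCm38.p6), 250 bases before to 50 after the annotated start, were matched by symbol for 164 members. KRAB members had a median of 10 CpG in the window and the others 21, the same as all 8807 matched protein-coding genes tested. A GC box, the letters GGGCGG on either strand, was present in 47.0% of the members, in 35.2% of the 54 lower members with a window, in 8 of 12 higher ones and in 64.8% of all matched genes. The letters TTCNNNGAA (GAS) were found in 15.9% of members and 6.67% of all, CCGGAAGT (ETS) in 11.6% and 9.08%, an ISRE motif in 1.83% and 3.30%, and a kB motif in 3.66% and 1.39%, each on either strand. Matches of different motifs may overlap. Across members the CpG number and the fold change in LPS had a Spearman rho of 0.35 (n = 164), of 0.20 within KRAB members (n = 102) and of 0.30 within the others (n = 62). The values share the same libraries, and CpG number goes with class, so they are given as a description.

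The windows of the members with the largest rises and falls, each in its own direction of transcription, show the range from CpG-poor to CpG-rich. Capitals mark the GC box letters or their reverse complement. The starts lie within 34 bases of the start of the transcript that held most of the gene's counts. Zfp811 (chr17:32809882-32810181, minus strand) has 5 CpG and no GC box, and Zfp800 (chr6:28261875-28262174, minus strand) has 41 CpG and 3 GC boxes. Zfp763 (chr17:33033332-33033631, minus strand) has 9 CpG and Zfp398 (chr6:47835411-47835710, plus strand) has 21, each with 1 GC box.
Zfp811: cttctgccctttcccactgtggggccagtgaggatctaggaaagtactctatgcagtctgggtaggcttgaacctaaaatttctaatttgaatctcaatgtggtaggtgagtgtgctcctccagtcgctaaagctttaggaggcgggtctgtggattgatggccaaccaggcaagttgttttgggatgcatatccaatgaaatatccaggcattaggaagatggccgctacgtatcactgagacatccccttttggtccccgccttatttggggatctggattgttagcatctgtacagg
Zfp800: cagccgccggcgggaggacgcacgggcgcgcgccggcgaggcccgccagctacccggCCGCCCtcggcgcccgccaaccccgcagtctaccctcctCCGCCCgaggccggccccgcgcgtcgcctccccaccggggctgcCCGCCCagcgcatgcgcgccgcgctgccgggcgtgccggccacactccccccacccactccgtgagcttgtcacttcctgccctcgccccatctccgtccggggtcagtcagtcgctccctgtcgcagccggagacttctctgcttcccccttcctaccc
Zfp763: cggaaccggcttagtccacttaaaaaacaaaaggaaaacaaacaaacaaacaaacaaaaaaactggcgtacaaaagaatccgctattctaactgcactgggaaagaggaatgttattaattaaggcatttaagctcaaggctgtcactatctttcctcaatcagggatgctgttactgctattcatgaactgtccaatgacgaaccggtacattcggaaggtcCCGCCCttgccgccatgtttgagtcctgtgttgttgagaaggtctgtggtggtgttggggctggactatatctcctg
Zfp398: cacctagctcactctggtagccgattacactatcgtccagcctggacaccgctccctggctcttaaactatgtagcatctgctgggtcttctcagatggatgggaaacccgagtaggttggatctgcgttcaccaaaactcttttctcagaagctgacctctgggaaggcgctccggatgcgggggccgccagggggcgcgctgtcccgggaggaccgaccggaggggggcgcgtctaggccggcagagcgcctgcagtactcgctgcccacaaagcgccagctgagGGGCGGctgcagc

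The second comparison set LPS+HACA against LPS, and it shares the LPS libraries with the first, so each comparison's own values are given. Of the 196 members, 25 were called higher and 9 lower, against 5.74% of all genes called higher and 7.67% called lower. KRAB members held 15 higher and 5 lower calls, and their median log2 difference was 0.79. The others held 10 higher and 4 lower calls, their median was 0.30, and the median of all genes was 0.06. Within replicate 1 the median log2 ratio over KRAB members was 0.40, and within replicate 2 it was 1.11. On leaving out LPS replicate 2 the median log2 difference was 0.47 over KRAB members and 0.35 over the others. On leaving out LPS replicate 1 it was 1.14 and 0.27. The size of the difference between the classes thus depended on which LPS library was kept. With the replicate number as a block, 52 members were higher and 15 lower, where 11.4% and 13.8% of all genes were called. Leaving out either control library gave 8 higher and 4 lower calls without control replicate 1 (1.9% and 3.61% of all genes) and 7 and 4 without control replicate 2 (1.74% and 3.5%). Without LPS replicate 1 there were 64 and 16 (8.78% and 9.73% of all genes). Without LPS+HACA replicate 1 there were 3 and 1 (0.842% and 1.2%), and without LPS+HACA replicate 2 there were 6 and 2 (1.59% and 2.06%).

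Zfp169 had the largest called difference upward. It stood at 0.985 and 0.193 CPM in LPS and at 3.83 and 3.52 CPM in LPS+HACA, a log2 difference of 2.63 ± 0.61 (adjusted p = 0.0303, edgeR), and 65.4% of its counts lay on a transcript annotated as a retained intron. Zfp398 followed with 2.43 ± 0.35 (adjusted p = 0.00715, edgeR). Zfp41 had 2.27, Zfp157 had 2.26 and Zfp940 had 2.10 on the log2 scale, and Zfp652 had 1.51 ± 0.20 (adjusted p = 0.00569, edgeR). In each of these 6 genes both LPS+HACA libraries were above both LPS libraries and, but for Zfp41, Zfp169 and Zfp940, below both control libraries. The calls of Zfp398 and Zfp652 held in all 14 alternatives, and the others of the 6 were lost without LPS+HACA replicate 1. Setdb1 also stood higher, by 1.60 ± 0.29 (adjusted p = 0.0147, edgeR), and lost that call without LPS+HACA replicate 1.

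Zfp811 had the largest fall, 4.24 ± 0.30 on the log2 scale (adjusted p = 0.00165, edgeR), from 40.6 and 39.8 CPM in LPS to 2.06 and 2.16 CPM in LPS+HACA, and this call held in all 14 alternatives. Zfp131 had -2.07 ± 0.27, Zfp800 had -1.54 ± 0.28 and Zfp263 had -1.51 ± 0.23. The other lower members were Zfp719 with -1.35, Zfp948 with -1.12, Zfp382 with -1.03, Zfp319 with -0.96 and Zfp871 with -0.79 (log2). Zfp719 stood at 45.02 and 64.5 CPM in LPS and 18.5 and 24.5 CPM in LPS+HACA, and Zfp319 at 164 and 185 CPM and 85.8 and 93.5 CPM, while their control libraries stood at 22.2 and 19.4 CPM and at 93.9 and 87.3 CPM. The LPS+HACA and control libraries of both genes overlapped. The calls of all 9 except Zfp811 were lost without LPS+HACA replicate 1. Zfp395, left out by the rule, had 3.66 ± 0.40 and Zfp703 had -2.04 ± 0.44 (adjusted p = 0.0254, edgeR).

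The third comparison, LPS+HACA against control, shares libraries with both others. Here 2 members were higher and 0 lower, against 0.894% and 0.257% of all genes. The 2 were Zfp811, with a log2 difference of 2.21 ± 0.35 (adjusted p = 0.0310, edgeR), and Zfp800, with 1.78 ± 0.30 (adjusted p = 0.0372, edgeR). Both calls were lost without any 1 of the control or LPS+HACA libraries. At an unadjusted p under 0.05 (edgeR), 4 members were higher and 2 lower. That cutoff is not corrected for the number of genes, so nothing is drawn from these counts. The replicate block gave 4 higher and 2 lower where 3.67% and 1.79% of all genes were called, the DESeq2 test gave 4 and 1 where 2.73% and 1.16% were, and limma-voom gave 0 and 0 where 0.812% and 0.432% were. The median was -0.17 over KRAB members and 0.01 over the others. Zfp652 stood at 127 and 144 CPM in LPS+HACA against 223 and 226 CPM in control, without overlap, and was not called (log2 difference -0.72 ± 0.20, adjusted p = 0.162, edgeR).

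The members whose log2 level over the 6 libraries was most like the summed level of all members were Zfp951 (Pearson r = 0.99), Zfp26 (0.93) and Zfp944 (0.93), all KRAB genes. The summed level itself stood at 4306 and 4733 CPM in control, 4247 and 4006 CPM in LPS, and 4193 and 4464 CPM in LPS+HACA, so the groups differed less in the sum than in the median member. Zfp951 stood at 5.39 and 10.3 CPM in control, 3.94 and 2.60 CPM in LPS, and 3.64 and 6.36 CPM in LPS+HACA.

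Other zinc finger families are given for comparison, by the same count floor. Of 27 Zbtb genes, whose proteins pair fingers with a BTB domain, 5 rose (18.5%) and 4 fell (14.8%) in LPS, near the 15.9% and 14.3% of all genes, and the median was -0.02. Of 10 Zscan and Zkscan genes, 3 were lower (30.0%), and the median was -0.74. Of 16 Zc3h genes, which encode CCCH fingers that bind RNA, 5 rose (31.2%) and 2 fell (12.5%), and the median was 0.27. The differences between these families and the members were not tested.

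The deposited counts were made per transcript, and how reads that fit several transcripts were treated is not given in the sources used here. A median of 69.5% of a member's exonic bases lay in 1 transcript only. For Zfp263 the share was 13.4%, for Zfp800 16.99% and for Zfp131 26.1%, and a change in transcript use cannot be told apart from a change in level there. Over the 163 members that shared under 20% of their 50-base stretches with other genes, 12 were higher and 49 lower in LPS. Over the 134 members with at least 50% of exonic bases in 1 transcript, 8 were higher and 47 lower. Of all genes tested, 15.9% were higher and 14.3% lower. With library totals as the only scaling, the median log2 fold change in LPS was -0.69 over all genes and -1.17 over the members. There were then 6 members higher and 112 lower, where 8.28% and 29.9% of all genes were called. The same scaling gave 89 higher and 3 lower in LPS+HACA against LPS, where 20.5% and 3.05% of all genes were called, and 1 higher and 0 lower in LPS+HACA against control, where 0.736% and 0.14% were.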

How the data were processed

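Transcript-level raw counts and FPKM values were deposited, per the file headers, and the counts are whole numbers whose totals differ between libraries. The submitters' processing notes list STAR 2.5.4b, edgeR 3.28.1, DESeq2 1.26.0, limma, Trim Galore and CASAVA, with GRCh38 beside GRCm38, without saying which did what. No counting program is given in the sources used here, and the deposited FPKM values were not tested.

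Counts were summed per gene with GENCODE vM21 (141524 of 142647 transcripts matched, and the other 1123 held at most 0.115% of a library). Genes passed filterByExpr, libraries were scaled by TMM, and 1 edgeR 4.0.16 quasi-likelihood model with the group as the only term took in all 6 libraries (R 4.3.3). Each SE was derived from the fold change and its F statistic. The procedure was tested on simulated counts. Alternatives used DESeq2 1.42.0, limma 3.58.1, other scalings, filters and libraries, and the replicate number as a block. Same-numbered libraries deviated together (r = 0.333 for control and LPS, 0.557 for control and LPS+HACA, 0.548 for LPS and LPS+HACA). The main model does not take in this pairing, so its SE, p-values and calls treat the libraries of a group as unpaired. Only the alternative with the replicate block uses it.

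The members and lists were chosen with earlier results of these data known. Named genes are the 8 largest called falls and 5 largest called rises per LPS comparison with at least 2 CPM in the higher group and no overlap, up to 3 each way in the third, the 6 with the highest mean CPM, up to 5 per role list, 3 most like the sum, and those at the rule's edges. KRAB, SCAN and finger patterns were searched in coding sequences translated from GENCODE vM21 in place of the planned RefSeq proteins. Depth limits low members: 18 of the 114 KRAB members stood under 1 CPM in LPS replicate 2, and 3 had 0 counts there.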

Additional observations from a re-analysis of the deposited data

How the results depend on the processing

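With library totals as the scaling, members called were 6 higher and 112 lower in LPS against control, 89 higher and 3 lower in LPS+HACA against LPS, and 1 higher in LPS+HACA against control. Leaving out 1 library at a time gave 5 to 20 higher and 13 to 83 lower in the first comparison, 3 to 64 higher and 1 to 16 lower in the second, and 0 to 3 higher in the third. In the second comparison there were 59 higher without the filter on low counts, where 6.34% of all genes were. A fit of only the 4 libraries compared gave 5 higher and 3 lower, where 1.59% and 3.20% of all genes were called. The replicate block gave 52 higher and 15 lower in the second comparison and 4 higher and 2 lower in the third, and changed no other count by over 1.5 times (17 higher and 80 lower in the first). The third comparison had 4 higher and 1 lower with the DESeq2 test and 0 higher with limma-voom. It had 1 higher in a fit of only the 4 libraries, where 1.93% of all genes were. With the largest transcript per gene 1 was higher, where 0.859% of all genes were. Chosen after seeing the data, the members with at least 50% of exonic bases in 1 transcript had 8 higher in the first comparison and 1 in the third. The cause of these moves was not tested. Where a group kept 1 library, that library was assumed to vary like the other groups.

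None of the values that changed sign was called at the main setting or at the one that turned it. In LPS against control, Zfp592 had -0.14 and Zfp91 had -0.48 with library totals, Zfp445 had 0.0048 with DESeq2 size factors and with the DESeq2 test, and Zfp638 had 0.041 with the largest transcript per gene. With 1 library left out, Trim28 ran from -0.16 to 0.077, Zfp91 from -0.18 to 0.40, Zfp638 from -0.52 to 0.22, Zfp609 from -0.66 to 0.14, Zfp445 from -0.41 to 0.30, Zfp991 from -0.59 to 0.25 and Zfp703 from -0.20 to 1.31 (log2). Depth limits the low members, where a few counts decide a fold change.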
